A study of Mus musculus with 12 samples.

Results

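AMP-activated protein kinase (AMPK) was followed in mouse epididymal white adipose tissue (eWAT) through 8 genes: the catalytic subunit genes Prkaa1 and Prkaa2, the scaffolding subunit genes Prkab1 and Prkab2, the regulatory subunit genes Prkag1, Prkag2 and Prkag3, and Stk11, which encodes the upstream kinase LKB1. The genes were picked out by symbol from the 23474 genes of the expression table, by a rule that uses no measured value. Earlier results of these data were known when the 8 were chosen. Each of the 8 had a row. Levels are in FPKM, fragments per kilobase of transcript scaled to the mapped fragments of a library, so that levels of different genes can be set side by side. A gene entered a test when its mean over the libraries compared was at least 1 FPKM. Of the 8 genes, 7 did so in every comparison, and Prkag1 did so in none.

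AMPK is a heterotrimer of a catalytic alpha, a scaffolding beta and a regulatory gamma subunit. The gamma subunit binds adenine nucleotides and so couples the kinase to the energy state of the cell, and LKB1 phosphorylates the activation loop of the alpha subunit. In adipocytes AMPK is known for phosphorylating acetyl-CoA carboxylase and hormone-sensitive lipase, by which it acts on fatty acid synthesis and on lipolysis. All values below are transcript levels, and neither AMPK protein nor its phosphorylation was measured in these files. The study that reported these data stained eWAT for PRKAG3 and described more adipocytes with this protein under TJ than under HFD.

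The eWAT came from male C57BL/6J mice that were 17 weeks old and had been fed their diets for 12 weeks from the age of 5 weeks. The ND group received a normal diet and the HFD group a high-fat diet. The GT group received the high-fat diet with an ethanol extract of green tea at 0.25% by weight, and the TJ group the high-fat diet with 3% by weight of Taeeumjowuitang, a herbal mixture. Each group had 10 mice, of which 3 were sequenced as 1 library each, so that the 12 libraries are separate animals. GT and TJ were both compared with the same 3 HFD libraries, and the extracts were given at different doses.

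The 12 libraries held between about 9700000 fragments (ND replicate 1) and 20200000 fragments (GT replicate 1), as read approximately from the spacing of the lowest FPKM values. ND replicate 1 stood apart. Its 8 testis germ cell markers summed to 98971 FPKM, against 2980 FPKM in ND replicate 3, 2061 FPKM in HFD replicate 1 and at most 165 FPKM in any other library, and its 8 adipocyte markers summed to 4102 FPKM, against at least 16068 FPKM elsewhere. The 8 epididymis markers summed to 13851 FPKM in ND replicate 1, 1291 FPKM in HFD replicate 2 and at most 12.7 FPKM in any other library. Results for ND are therefore given with and without ND replicate 1. Across the remaining groups the adipocyte markers summed to 16068 to 18772 FPKM in HFD, 22951 to 26325 FPKM in GT and 28530 to 59032 FPKM in TJ. The 8 macrophage markers summed to 3050 to 4313 FPKM in HFD, 1243 to 2823 FPKM in GT and 727 to 2247 FPKM in TJ. All 8 adipocyte markers and all 8 macrophage markers were detected in these 3 groups. In bulk tissue, fewer cells of a type and less RNA per cell cannot be told apart, and the part of cell composition in the differences below was not tested.

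Prkag2, a gamma gene that was called in 1 comparison, has 3 start sites in RefSeq (GRCm38.p6), and its FPKM sums over all of them. The 250 bases before each start are shown, together with those of Prkaa1, the more abundant alpha gene, which was not called, because these are the promoter letters behind the gene-level values. RefSeq windows were found for all 8 genes (10 windows). Capitals mark the GC box GGGCGG and the CCAAT box CCAAT on either strand, and no base was matched by both motifs. The GC box occurred in 32.7% and the CCAAT box in 33.8% of all 32851 windows of this length. The Prkag2 windows lie on the minus strand at chr5:25100643-25100892, chr5:24995754-24996003 and chr5:24908510-24908759, and the Prkaa1 window lies on the plus strand at chr15:5143611-5143860. Each is printed 5′ to 3′ on the strand of its gene.
Prkag2, most upstream start: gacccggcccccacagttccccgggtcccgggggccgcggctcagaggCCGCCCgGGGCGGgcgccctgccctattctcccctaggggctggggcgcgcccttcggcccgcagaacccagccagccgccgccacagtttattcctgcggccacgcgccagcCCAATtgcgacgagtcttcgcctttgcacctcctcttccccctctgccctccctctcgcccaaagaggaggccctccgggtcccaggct
Prkag2, middle start: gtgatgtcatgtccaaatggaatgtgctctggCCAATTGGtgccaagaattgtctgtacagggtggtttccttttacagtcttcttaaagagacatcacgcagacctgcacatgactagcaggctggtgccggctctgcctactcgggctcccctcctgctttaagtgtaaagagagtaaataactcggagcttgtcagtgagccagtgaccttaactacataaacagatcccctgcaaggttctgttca
Prkag2, most downstream start: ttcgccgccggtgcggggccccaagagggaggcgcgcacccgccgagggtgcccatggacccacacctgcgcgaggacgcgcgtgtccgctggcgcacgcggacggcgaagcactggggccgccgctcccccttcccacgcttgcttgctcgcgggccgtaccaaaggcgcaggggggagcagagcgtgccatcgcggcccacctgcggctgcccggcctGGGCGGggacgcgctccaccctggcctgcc
Prkaa1: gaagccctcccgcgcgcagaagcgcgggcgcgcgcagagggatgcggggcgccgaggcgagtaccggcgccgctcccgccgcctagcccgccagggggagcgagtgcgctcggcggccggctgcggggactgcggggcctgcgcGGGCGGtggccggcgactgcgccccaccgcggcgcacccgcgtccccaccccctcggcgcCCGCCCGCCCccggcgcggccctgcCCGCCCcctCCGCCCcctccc

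The 3 Prkag2 windows were unlike each other in composition. They held 23, 4 and 34 CG dinucleotides from the most upstream to the most downstream start, against a median of 6 over all windows. The GC box matched 2 times in the first window and 1 time in the last, and the CCAAT box matched 1 time in the first and 2 times in the middle window, there on opposite strands of overlapping letters. The Prkaa1 window was the richest of the 10 in CG dinucleotides, with 45, and held 5 GC box matches. The Stk11 window held 3 CCAAT box matches and no GC box match, and the Prkag3 window held 9 CG dinucleotides and no match to either motif. A gene-level FPKM does not say which start was used, and a match of letters is a description only.

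The genes that passed the threshold were gamma subunit genes. Prkag3 was higher in GT and in TJ than in HFD, 2.07-fold and 2.14-fold on the mean FPKM, and Prkag2 was 1.55-fold higher in TJ than in HFD. No subunit gene and not Stk11 was called between HFD and ND with all libraries, or between TJ and GT. Genes were called by limma on log2(FPKM + 1) when the adjusted p was below 0.05 and the fold change at least 1.5. Between TJ and HFD 2 of the 7 tested members were called, both higher in TJ, where 18.5% of all tested genes were called and 7.41% were called and higher in TJ. Between GT and HFD 1 of 7 was called, where 3.63% of all tested genes were called and 1.83% were called and higher in GT. With so few members these counts describe the genes and say nothing of the set.

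**Figure D1:**
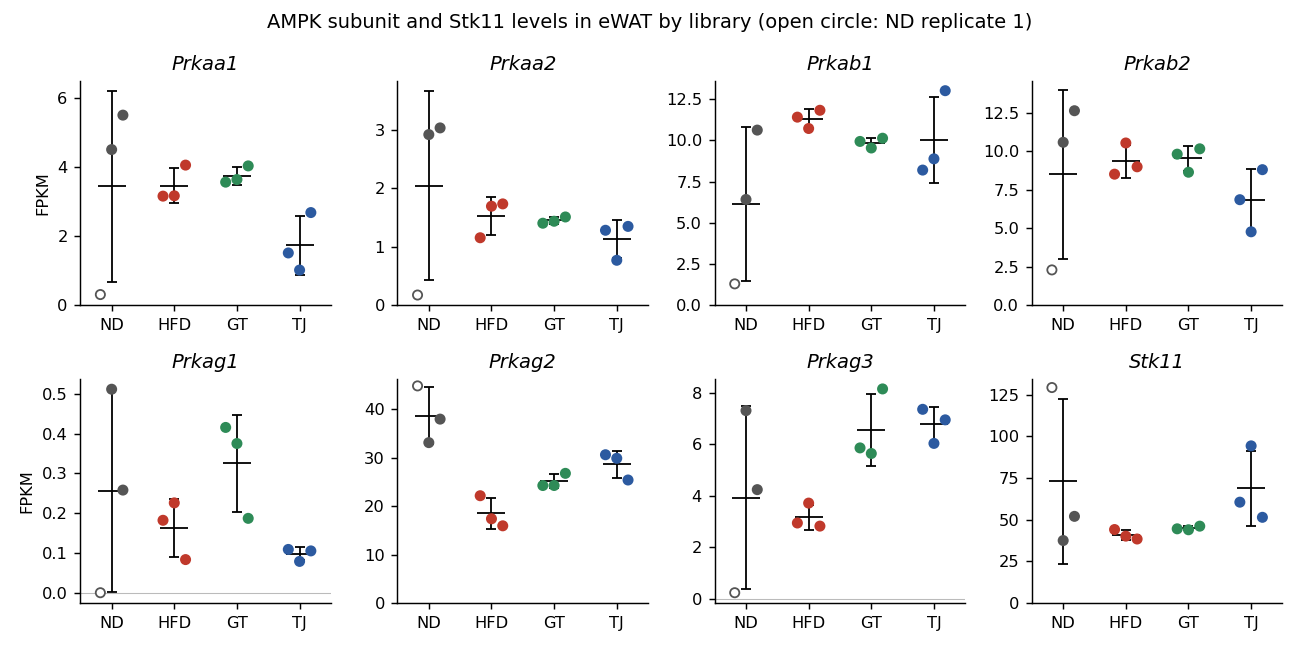
Level in FPKM (vertical axis, from 0) of each of the 8 genes in the 12 libraries, grouped by diet on the horizontal axis, with the black bar and whiskers giving mean ± SD of 3 libraries and the open circle marking ND replicate 1. The 3 TJ and 3 GT points of Prkag3 lie above all 3 HFD points, and ND replicate 1 lies far below the other ND points in 5 genes: Prkaa1, Prkaa2, Prkab1, Prkab2 and Prkag3.

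Stk11 and Prkag2 were the most abundant of the 8 transcripts as listed, in that order, in all 12 libraries. Prkag1 was listed lowest in all 12, at or near 0, which can be a failed estimate. Prkaa2 was next to last in all 12. The middle places, held by Prkab1, Prkab2, Prkaa1 and Prkag3, changed in order between libraries. Prkab1 and Prkab2 overlapped in GT and TJ but not in HFD, and Prkaa1 and Prkag3 overlapped in HFD but not in GT or TJ.

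Of the catalytic subunits, Prkaa1 (chromosome 15, 5143861 to 5181899, plus strand, GRCm38) was the more abundant in each library. Its levels were 0.309, 4.51 and 5.51 FPKM in ND replicates 1 to 3, 3.16, 3.17 and 4.06 FPKM in HFD, 3.57, 3.64 and 4.04 FPKM in GT, and 1.51, 1.02 and 2.68 FPKM in TJ. All 3 TJ libraries lay below all HFD and all GT libraries, while GT and HFD overlapped. Against HFD the log2 fold change of Prkaa1 in TJ was -0.74 (SE 0.26, limma adjusted p = 0.0754), which was not called. Against GT it was -0.84 (SE 0.23, limma adjusted p = 0.126), also not called, although the groups did not overlap. Between GT and HFD it was 0.09 with a 95% interval of -0.22 to 0.41. Prkaa1 passed in TJ against HFD without TJ replicate 3 (-0.98, limma adjusted p = 0.0319) and when the fit took in 11 libraries, all but ND replicate 1 (limma adjusted p = 0.0315). That 11-library fit, chosen after seeing the data, called 23.4% of all tested genes and 4 members: Prkaa1, Prkag2, Prkag3 and Stk11.

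Prkaa2 (chromosome 4, 105029874 to 105109890, minus strand), the other catalytic subunit gene, was at 0.172, 2.91 and 3.03 FPKM in ND, 1.15, 1.69 and 1.73 FPKM in HFD, 1.40, 1.43 and 1.51 FPKM in GT, and 1.28, 0.766 and 1.34 FPKM in TJ. The HFD range covered the whole GT range and overlapped the TJ range. Its TJ against HFD log2 fold change was -0.25 with a 95% interval of -0.81 to 0.31. Prkaa2 and Prkaa1 have long transcripts, of 7969 and 4655 bases at the longest, and the median difference between TJ and HFD over all tested genes varied with transcript length. It was 0.25 on the log2 scale for 2901 genes under 2000 bases, -0.28 for 2907 genes of 4000 to 6000 bases and -0.45 for 1720 genes of 6000 bases or more. With each library's trend with length removed, an alternative chosen after seeing the data, the TJ against HFD log2 fold change of Prkaa1 was -0.61 and that of Prkaa2 was 0.05, a change of sign.

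The beta subunits, which tether the alpha and gamma subunits and carry a glycogen-binding domain, were not called in any comparison. Prkab1 (chromosome 5, 116013586 to 116024508, minus strand) was at 1.29, 6.41 and 10.6 FPKM in ND, 11.4, 10.7 and 11.8 FPKM in HFD, 9.93, 9.53 and 10.1 FPKM in GT, and 8.19, 8.88 and 13.0 FPKM in TJ. The 3 GT libraries lay below the 3 HFD libraries, by -0.18 on the log2 scale (SE 0.09, limma adjusted p = 0.212). The TJ libraries spanned the HFD range, with replicate 3 above it and the others below. Prkab2 (chromosome 3, 97658193 to 97673812, plus strand) was at 2.296, 10.6 and 12.6 FPKM in ND, 8.52, 10.5 and 9.001 FPKM in HFD, 9.82, 8.65 and 10.2 FPKM in GT, and 6.86, 4.77 and 8.81 FPKM in TJ. The highest TJ library overlapped both HFD and GT, and the TJ against HFD log2 fold change was -0.43 with a 95% interval of -0.93 to 0.06.

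Among the gamma subunits, Prkag3 (chromosome 1, 74738922 to 74749221, minus strand), known as the isoform typical of skeletal muscle, was detected in each library. Its levels were 0.242, 7.31 and 4.24 FPKM in ND, 2.95, 3.72 and 2.83 FPKM in HFD, 5.86, 5.64 and 8.15 FPKM in GT, and 7.36, 6.04 and 6.95 FPKM in TJ. Every GT and every TJ library was above every HFD library, and GT and TJ overlapped. In GT against HFD the log2 fold change was 0.85 (SE 0.16, limma adjusted p = 0.0456), higher in 3 of 3 GT libraries. With TJ it was 0.90 (SE 0.15, limma adjusted p = 0.0246), higher in 3 of 3 TJ libraries. TJ and GT differed by 0.05 (95% interval -0.35 to 0.46), so that the interval holds differences of either sign.

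The call of Prkag3 in GT rested on most of the libraries. It held without GT replicate 1 (limma adjusted p = 0.0434) and was lost without GT replicate 2 (0.177), GT replicate 3 (0.0901) and HFD replicates 1, 2 and 3 (0.0714, 0.108 and 0.158). In TJ it held without TJ replicates 2 and 3 and was lost without TJ replicate 1 (limma adjusted p = 0.0645) and without HFD replicates 1, 2 and 3 (0.0575, 0.0808 and 0.113). Its log2 fold change stayed between 0.70 and 1.07 in GT and between 0.85 and 1.16 in TJ under all alternatives run. With all 12 libraries in the fit, ND replicate 1 included, the limma adjusted p was 0.444 in TJ. In GT the call was also lost in that fit, with the replicate number as a block, without the limma trend and in the 11-library fit. Without the filter it was lost in GT and in TJ.

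Markers of skeletal muscle were low in these groups. The 7 of 8 listed muscle markers that had a row summed to 1.34 to 1.99 FPKM in HFD, 1.00 to 1.59 FPKM in GT and 2.103 to 3.34 FPKM in TJ. Mylpf reached 1.42 FPKM and Tnni2 1.12 FPKM, both in TJ, and Tnnt3 lay at 0.212 to 0.756 FPKM in TJ, above all HFD libraries. Ckm, the muscle creatine kinase, was between 0 and 0.135 FPKM. The part of muscle transcripts in the Prkag3 values was not tested. All 8 adipocyte markers in TJ and 7 of 8 in GT lay above all HFD libraries, and 7 of 8 macrophage markers in TJ and 6 of 8 in GT lay below them, in the same libraries in which Prkag3 was higher. In TJ 6 of 8 lymphocyte and 4 of 6 endothelial markers also lay above all HFD libraries, and 5 of 6 progenitor or fibroblast and 7 of 8 testis germ cell markers lay below them. In GT 3 of 6 progenitor or fibroblast markers lay below HFD and 1 of 6 endothelial markers above. The summed level of the progenitor or fibroblast markers was 1163 to 1420 FPKM in HFD, 705 to 1000.4 FPKM in GT and 462 to 637 FPKM in TJ, and that of the endothelial markers 281 to 311, 321 to 416 and 454 to 695 FPKM. The part of these cell types in the members' values was not tested. The 3′ end of Prkag3 lies 1030 bases from Cyp27a1, which is on the opposite strand and was at 24.9 to 28.8 FPKM in HFD, 29.6 to 34.3 FPKM in GT and 45.7 to 74.2 FPKM in TJ. The library kit does not mark strand, and whether reads that run past the end of Cyp27a1 count towards Prkag3 was not tested.

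Prkag2 (chromosome 5, 24862744 to 25100642, minus strand) had the highest listed level of the gamma genes in each library, with Prkag1 taken as listed. It was at 44.9, 33.1 and 38.0 FPKM in ND, 22.2, 17.4 and 15.9 FPKM in HFD, 24.3, 24.3 and 26.8 FPKM in GT, and 30.6, 29.9 and 25.4 FPKM in TJ. The HFD libraries were the lowest 3 of the 12, and no library of another group overlapped them. The log2 fold change in TJ against HFD was 0.61 (SE 0.16, limma adjusted p = 0.0419), higher in 3 of 3 TJ libraries. With GT it was 0.43 (SE 0.13, limma adjusted p = 0.0962), not called. TJ and GT overlapped and differed by 0.18 (95% interval -0.14 to 0.50). The call in TJ held without TJ replicate 3 (limma adjusted p = 0.0378) and was lost without TJ replicates 1 and 2 (0.116 and 0.0548) and without HFD replicates 1, 2 and 3 (0.058, 0.128 and 0.146).

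Prkag1 (chromosome 15, 98812797 to 98831521, minus strand), a gamma gene known to be broadly expressed, was at 0 to 0.512 FPKM in ND, 0.0833 to 0.226 FPKM in HFD, 0.187 to 0.416 FPKM in GT and 0.0787 to 0.109 FPKM in TJ. It stayed under the filter and was not tested. Ppp2ca, the catalytic subunit gene of the phosphatase PP2A that every cell uses, was listed at 0 in all 12 libraries of the same table. A value at or near 0 in this table can thus be a failed estimate, and the level of Prkag1 is given only as listed.

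Stk11 (chromosome 10, 80115803 to 80130682, plus strand), the LKB1 gene, was the most abundant of the 8. Its levels were 129, 37.5 and 52.0 FPKM in ND, 44.1, 40.1 and 38.4 FPKM in HFD, 44.5, 43.9 and 46.1 FPKM in GT, and 60.5, 94.3 and 51.4 FPKM in TJ. All 3 TJ libraries were above all HFD and GT libraries, with TJ replicate 2 far above the other TJ libraries. The log2 fold change in TJ against HFD was 0.69 (SE 0.23, limma adjusted p = 0.0677), and in TJ against GT it was 0.56 (SE 0.22, limma adjusted p = 0.181), neither of which was called. Without TJ replicate 2 the TJ against HFD log2 fold change was 0.44, under the fold limit, and without TJ replicate 3 it was 0.87 and was called (limma adjusted p = 0.037). Stk11 also passed under quantile normalization and in the 11-library fit (limma adjusted p = 0.039 and 0.034). TJ replicate 2 also had the highest adipocyte marker sum, 59032 FPKM, and the lowest macrophage marker sum among these 9 libraries, 727 FPKM. Stk11 overlaps Cbarp on the opposite strand, which was at 1.54 to 3.29 FPKM in HFD, GT and TJ, so that their reads cannot be told apart where they overlap. The same holds for the annotated genes on the opposite strand that overlap Prkaa1, Prkab1, Prkab2, Prkag1 and Prkag2. Gm17651, which overlaps Prkab2, was listed at 0 in each library.

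**Figure D2:**
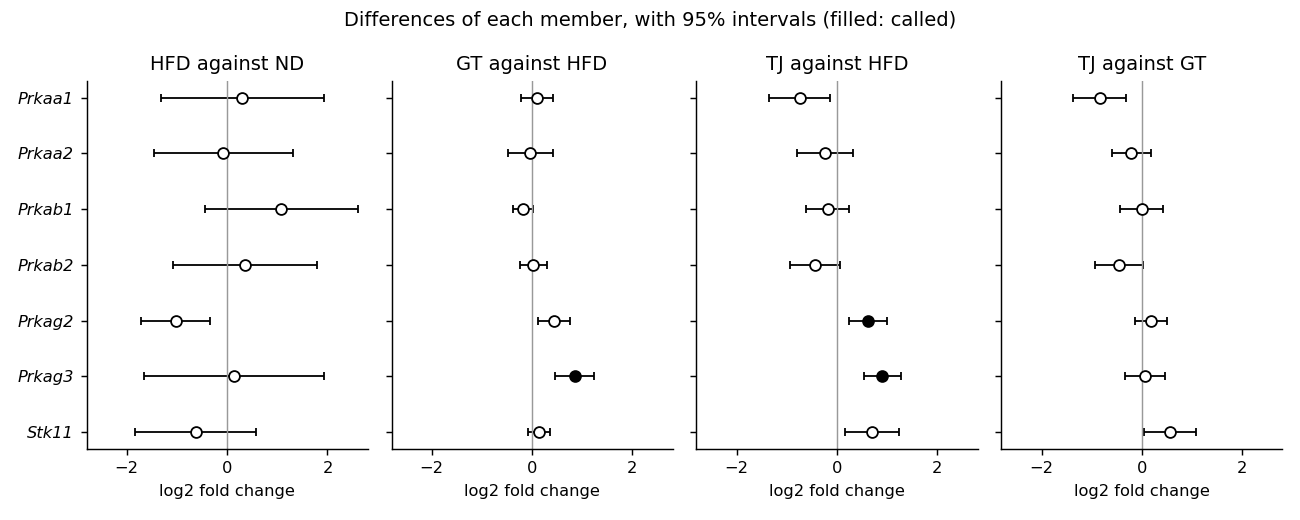
Log2 fold change on the log2(FPKM + 1) scale (horizontal axis) of the 7 tested genes in each of 4 comparisons, with 95% intervals from limma and filled points for called genes. Filled points are Prkag3 in GT against HFD and Prkag3 and Prkag2 in TJ against HFD, and the intervals are widest in HFD against ND, where ND replicate 1 enters.

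Between HFD and ND none of the 7 tested members was called by limma, 1 (Prkag2) had an unadjusted p below 0.05, and 1.77% of all tested genes were called. Prkag2 was at a mean of 18.5 ± 3.25 FPKM in HFD and 38.7 ± 5.89 FPKM in ND (SD, n = 3), a log2 fold change of -1.03 (SE 0.28, limma adjusted p = 0.192), with no overlap. Prkab1 was the other member whose groups did not overlap, at 1.08 (SE 0.62, limma adjusted p = 0.494). These are 2 of 7 members, where 26.4% of all tested genes did not overlap. With the replicate number as a block, limma called no gene, against 255 without it (2239 and 1672 had an unadjusted p below 0.05), and the adjusted p of Prkag2 was 0.307.

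Without ND replicate 1, Prkag2 fell by 0.92 on the log2 scale in HFD (limma adjusted p = 0.027), and it was the only 1 of 7 members called, where 15.4% of all tested genes were called. The ND mean was then 35.6 FPKM over 2 libraries. Of the 7 tested members 6 did not overlap between those 2 ND libraries and HFD, where 47.2% of all tested genes did not. The 5 others were Prkaa1, Prkaa2, Prkab2 and Prkag3, which were higher in ND, and Prkab1, which was higher in HFD. Their log2 fold changes were -0.43, -0.66, -0.29, -0.67 and 0.41, in that order, with limma adjusted p between 0.165 and 0.307. For Prkaa1, Prkab2 and Prkag3 leaving out this library turned the sign. Stk11 was at 129 FPKM in ND replicate 1 and at 37.5 and 52.0 FPKM in the other ND libraries, which bracket the HFD levels.

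Between GT and HFD 3 of 7 members did not overlap (Prkag2, Prkag3 and Prkab1), where 36.7% of all tested genes did not. Between TJ and HFD 4 of 7 did not overlap (Prkag2, Prkag3, Prkaa1 and Stk11), where 51.5% of all tested genes did not. Between TJ and GT 3 of 7 did not overlap (Prkaa1, Prkaa2 and Stk11), where 34.4% of all tested genes did not. In that last comparison limma called no member and 0.148% of all tested genes, and 2 members (Prkaa1 and Stk11) had an unadjusted p below 0.05. The non-overlapping shares are close to the background in all 3 comparisons at this number of genes. Over all tested genes the median log2 fold change was -0.12 in GT against HFD and -0.14 in TJ against HFD. It became -0.01 and -0.02 with median-of-ratios scaling, under which Prkag3 was at 0.96 and 1.02 and Prkag2 at 0.56 and 0.75.

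The subunit genes were also compared as shares of the summed FPKM of their class in each library. The sums of the gamma genes below take Prkag1 as listed, near 0. That value can be a failed estimate, and the gamma shares and ratios would then be different. Prkag2 made up 81.5 to 87.6% of the gamma transcript in HFD, 76.3 to 80.1% in GT and 78.3 to 83.0% in TJ. Prkag3 made up 11.7 to 17.4% in HFD, 18.6 to 23.2% in GT and 16.8 to 21.4% in TJ. The GT shares of Prkag3 lay above all HFD shares, and the TJ shares overlapped with the highest HFD share. In ND, Prkag3 made up 17.8 and 9.98% in replicates 2 and 3 and 0.536% in replicate 1.

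Prkaa1 made up 65.2 to 73.3% of the alpha transcript in HFD, 71.8 to 72.8% in GT and 54.2 to 66.6% in TJ. The TJ shares lay below all GT shares and overlapped with HFD. Prkab1 made up 50.4 to 57.2% of the beta transcript in HFD, 49.9 to 52.4% in GT, 54.4 to 65.0% in TJ and 36.0 to 45.6% in ND, so that ND was the group in which Prkab2 was the major beta transcript in each library. The sum of the gamma genes, with Prkag1 as listed, was set over the sum of the alpha genes. This ratio was 3.26 to 5.87 in HFD, 5.97 to 6.34 in GT and 8.06 to 20.2 in TJ, with no overlap between these groups. In ND it was 5.52 and 4.98 in replicates 2 and 3 and 93.9 in replicate 1. The sum of the beta genes over the alpha genes was 3.597 to 4.62 in HFD, 3.58 to 3.98 in GT and 5.39 to 7.65 in TJ. Shares and ratios were described and not tested, and the part of transcript length in them was not tested.

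**Figure D3:**
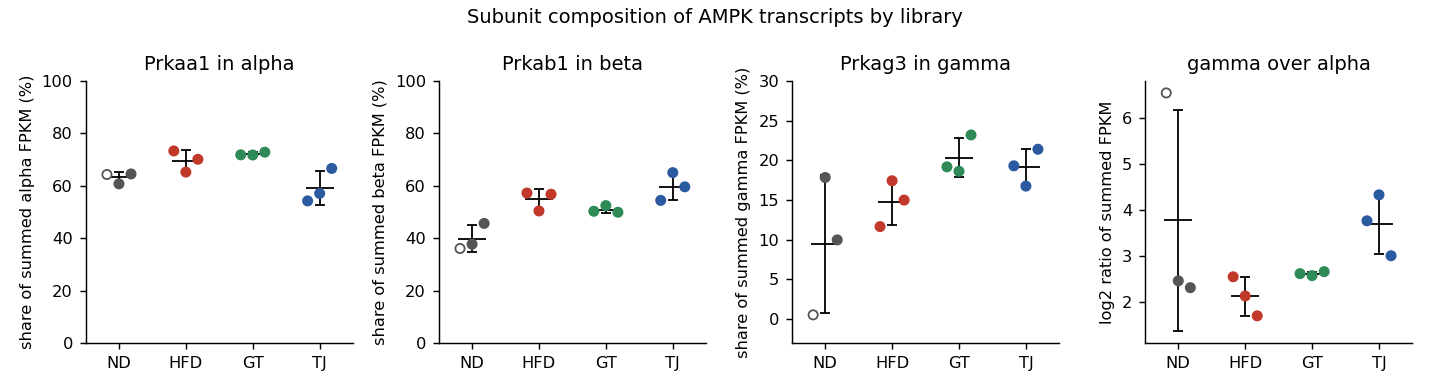
Share of Prkaa1 in the alpha, Prkab1 in the beta and Prkag3 in the gamma transcript (first 3 panels, percent of summed FPKM) and the log2 ratio of summed gamma to summed alpha FPKM (last panel), by library and diet, with mean ± SD of 3 libraries and ND replicate 1 as an open circle. The 3 TJ ratios lie above all GT ratios, which lie above all HFD ratios. The gamma sums take Prkag1 as listed, near 0.

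**Figure D4:**
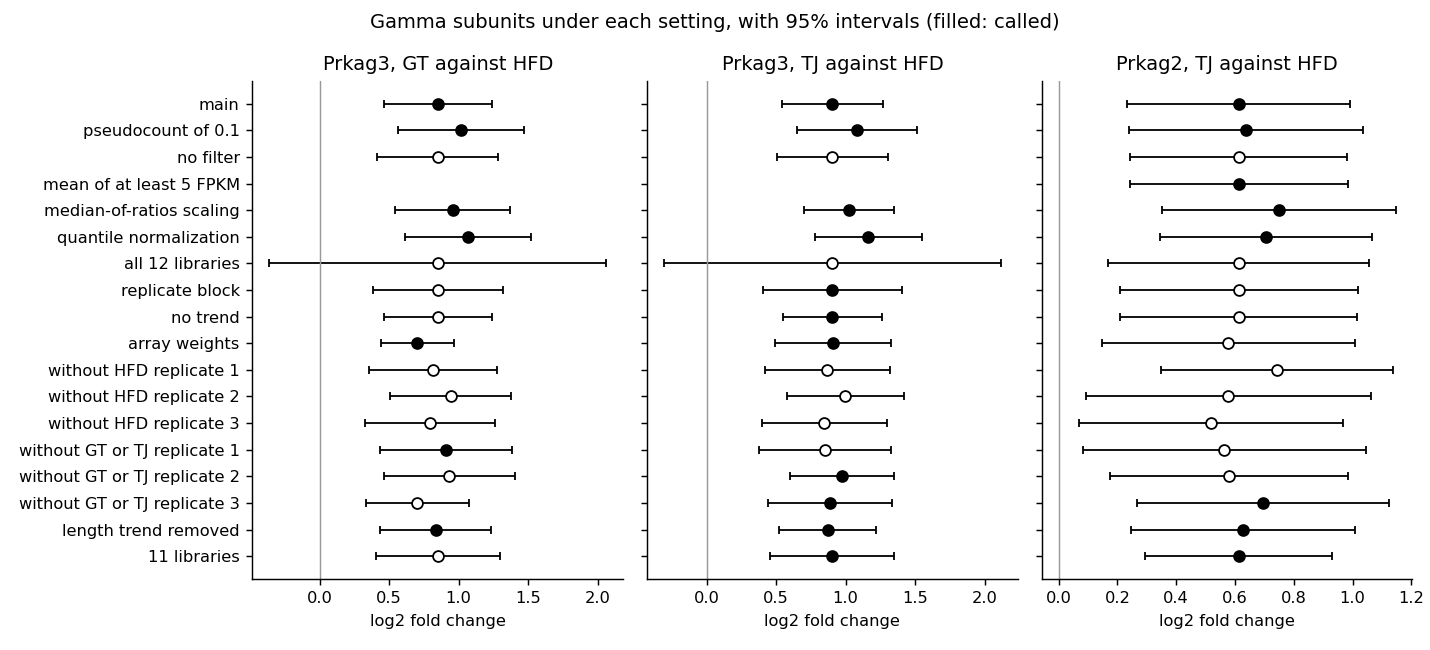
Log2 fold change (horizontal axis) with 95% interval of Prkag3 in GT against HFD and in TJ against HFD and of Prkag2 in TJ against HFD, under the main setting and each alternative (vertical axis), filled where called. The log2 fold changes stay above 0 in all 3 panels, and the calls are lost under many of the alternatives that leave out a library. Prkag3 has no point at a mean of at least 5 FPKM, where it was filtered out.

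The genes around AMPK were read from 4 lists. In TJ against HFD, 7 of the 17 tested genes of the LKB1 complex and other upstream regulators were called, 1 higher and 6 lower, with a list median of -0.38 beside -0.14 over all tested genes, of which 18.5% were called. No gene of any list, and no gene at all, was called in TJ against HFD without HFD replicate 1, 2 or 3 or TJ replicate 1. Of the upstream regulators 4 were called lower with median-of-ratios scaling or the length trend removed, 3 with quantile normalization and 0 with the replicate block, and 1 was called higher in all of these but the block, with 0. Fnip2 and Fnip1, partners of folliculin, fell by 1.90 (SE 0.51) and 1.25 (SE 0.33) on the log2 scale. Cab39, which encodes the MO25 scaffold of the LKB1 complex, fell by 0.83 (SE 0.21), and Camkk2, an alternative upstream kinase of AMPK, fell by 0.64 (SE 0.18). Of the sestrins, stress-inducible regulators of nutrient signalling, Sesn3 fell by 0.99 (SE 0.25) and Sesn1 by 0.59 (SE 0.17), while Sesn2 rose by 0.60 (SE 0.15). The limma adjusted p of the called genes lay between 0.0386 and 0.0473.

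Of the 19 listed AMPK substrates 18 were tested in TJ against HFD, and 3 rose and 2 fell, with a median of 0.18 beside -0.14 over all tested genes, of which 18.5% were called and 7.41% were called and higher. Lipe, which encodes hormone-sensitive lipase, rose by 1.14 (SE 0.23), Mlycd, malonyl-CoA decarboxylase, by 0.98 (SE 0.24) and Gys1, glycogen synthase, by 0.69 (SE 0.15). The transcription factor gene Foxo3 fell by 0.89 (SE 0.22) and Rptor, which encodes raptor, by 0.59 (SE 0.12). With GT 2 of 18 rose against HFD and none fell, where 3.63% of all tested genes were called. These were Lipe, at 0.92 (SE 0.13, limma adjusted p = 0.0338), and Acacb, an acetyl-CoA carboxylase, at 0.78 (SE 0.14, limma adjusted p = 0.0379). Acacb was at 0.76 in TJ against HFD (SE 0.26, limma adjusted p = 0.0745), not called. With median-of-ratios scaling or quantile normalization 4 substrates (Lipe, Acacb, Gys1 and Mlycd) were called higher in GT against HFD, with the length trend removed 3 (without Mlycd), and with the replicate block or in the 11-library fit none was. In TJ against HFD the substrates called higher and lower were 3 and 1 with median-of-ratios scaling, 4 and 1 with quantile normalization, and 1 and 0 with the replicate block.

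Of the 13 listed kinases related to AMPK, which LKB1 is known to activate apart from Melk, 12 were tested in TJ against HFD. Mark1 fell by 0.99 (SE 0.22), and so did Melk, a kinase of proliferating cells that is not known as an LKB1 target, by 0.93 (SE 0.22). None rose, and the list median was -0.34 beside -0.14 over all tested genes, of which 18.5% were called. With quantile normalization 1 of these kinases (Nuak1) was called higher and 0 lower, and with the replicate block none was called. Nuak1 had the highest value, 0.36 (SE 0.19, limma adjusted p = 0.185). Of the 14 adiponectin and adrenergic genes, 3 rose in TJ against HFD and 1 fell, with a list median of 0.29 beside -0.14, where 18.5% of all tested genes were called and 7.41% were called and higher. Adrb3, the adipocyte beta adrenergic receptor, rose by 2.51 (SE 0.41), Adipoq, adiponectin, by 1.46 (SE 0.22) and Adipor2, an adiponectin receptor, by 0.75 (SE 0.19). Adcy3, an adenylyl cyclase, fell by 1.03 (SE 0.23). No gene of either list was called in GT against HFD, where Adrb3 was at 1.41 (SE 0.35, limma adjusted p = 0.0647) and Adcy3 at -0.43 (SE 0.16). Of the adiponectin and adrenergic genes 2 (Adcy6 and Adipor2) were called higher there with median-of-ratios scaling and 1 (Adipor2) with the length trend removed. The list medians in GT against HFD were -0.13 for the upstream regulators, -0.14 for the related kinases, 0.18 for the substrates and 0.31 for the adiponectin and adrenergic genes, beside -0.12 over all tested genes. The extremes of the first 3 lists there were Fnip2 (-1.01) and Sesn2 (0.51), Melk (-0.62) and Nuak1 (0.29), and Mff (-0.45) and Lipe. Adipoq and Lipe are in the adipocyte marker list as well. Of the adiponectin and adrenergic genes in TJ against HFD, 4 were called higher and 1 lower with median-of-ratios scaling or quantile normalization, and 2 and 1 with the replicate block.

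In TJ against GT no gene of the 4 lists was called, and no list had a member past 1.11 (Adrb3) or -0.89 (Fnip2). The other extremes were Sesn2 (0.09), Mark1 (-0.44) and Sik1 (0.21), Foxo3 (-0.61) and Mlycd (0.47), and Adcy3 (-0.60). In HFD against ND with all libraries 1 gene of the lists was called, Fnip2, which rose by 2.93 (SE 0.34, limma adjusted p = 0.0241). With the replicate block it was not called (limma adjusted p = 0.106). The other extremes of the lists, none called, were Sesn2 (-0.83), Brsk2 (-1.72) and Melk (1.29), Ppargc1a (-0.71) and Foxo3 (0.69), and Adrb3 (-0.98) and Adcy3 (2.08). Without ND replicate 1, where 15.4% of all tested genes were called, 4 of 17 upstream regulators were called higher in HFD (Fnip2, Sesn1, Lamtor1 and Cab39) and 1 lower (Sesn2). Of the 19 substrates 6 were then called lower in HFD and none higher: Acaca, Acacb, Gys1, Pfkfb3, Lipe and Txnip, with log2 fold changes from -1.63 (Acaca) to -0.72 (Txnip). Among all 13661 tested genes 593 were called lower in HFD and 1505 higher. Adrb3, Adipoq and Adipor2 were called lower and Adcy3 higher, at -2.33, -1.19, -1.18 and 1.01, and Sik2 was called lower and Melk higher, at -1.65 and 1.29. The HFD libraries of HFD against ND are also the reference of GT against HFD and TJ against HFD.

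**Figure D5:**
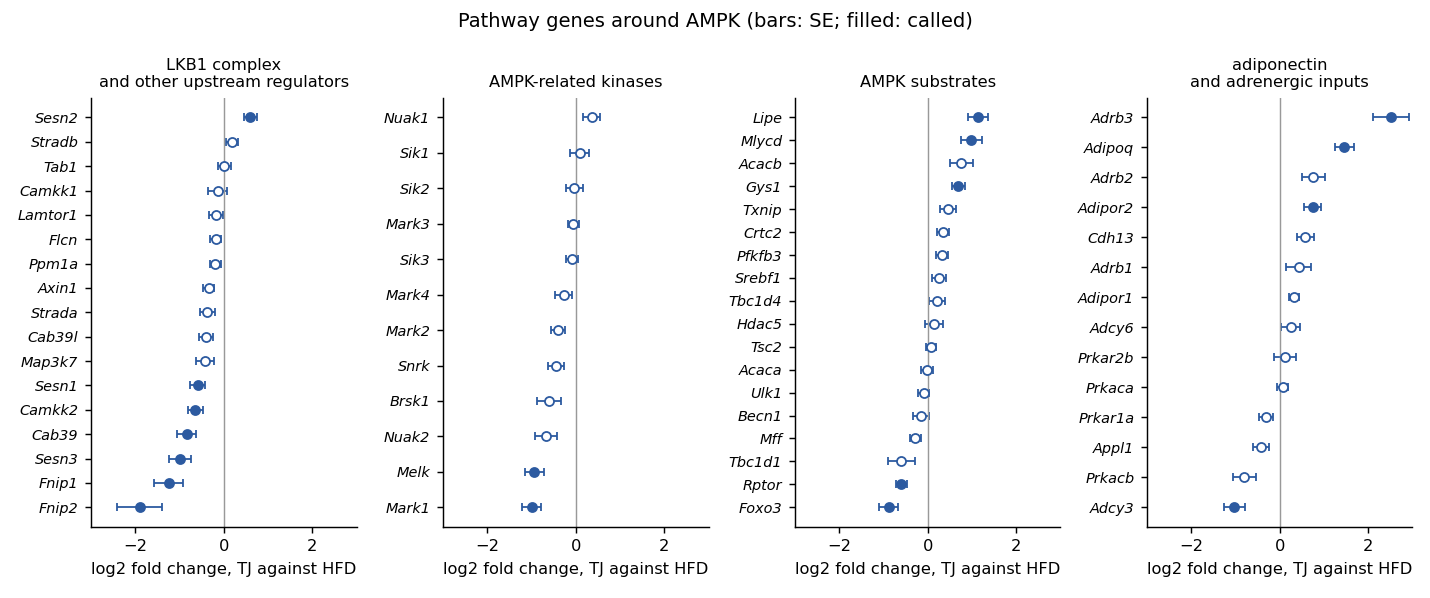
Log2 fold change in TJ against HFD (horizontal axis, with SE) of the tested genes of the 4 lists around AMPK, ordered by value within each list, filled where called. In the list of upstream regulators 6 filled points lie below 0 and 1 above, and Adrb3 has the highest value of all, 2.51.

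The genes whose log2 levels over the 12 libraries were most like those of each member were read as a description. For Prkag3 these were Slc2a4, the insulin-responsive glucose transporter gene, Dmrt2 and Sybu, with Pearson r of 0.977, 0.975 and 0.975. For Prkag2 they were Mkrn2, Smim1 and 4930458D05Rik (0.955, 0.951 and 0.945), and for Stk11 Yjefn3, Macrod1 and Nop53 (0.989, 0.983 and 0.976). For Prkaa1 they were Vps13c, Sec24a and Alkbh8 (0.976, 0.976 and 0.974), and for Prkaa2 Syde2, Arrdc3 and Cdc73 (0.983, 0.978 and 0.978). For Prkab1 they were Pias3, Camk2g and Tnfaip1, and for Prkab2 Elmod2, Ube4a and Zfp24, at 0.986 to 0.989. ND replicate 1 enters all of these. Over the 11 other libraries the genes nearest to Prkag3 were Gstz1, Sucnr1 and Myrip (0.978, 0.938 and 0.937), and Prkaa1 went with Prkab2 at 0.93, with Prkaa2 at 0.79 and with Stk11 at -0.80. Over the same 11 libraries Prkag2 and Prkag3 went together at 0.60, against -0.20 over all 12. The libraries differ in diet group, cell type marker levels and depth, and no test was made.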

How the data were processed

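Total RNA of eWAT was sequenced from 12 mice, 3 in each of 4 groups. The authors deposited gene-level FPKM values; per the labels they used CASAVA 1.8.2, STAR 2.4.0 and Cufflinks 2.1.1, and the study's methods describe masking of noncoding regions and correction for multiply mapped reads and fragment bias. The methods name a human genome, while all 23474 identifiers are mouse. Symbols were found for 22671, and coordinates and transcript lengths are from GENCODE M21 (GRCm38).

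Differences were tested with limma 3.58.1 (R 4.3.3; lmFit and eBayes with trend) on log2(FPKM + 1), over the 6 libraries compared, after genes averaging under 1 FPKM in them were left out. Genes were called at a Benjamini-Hochberg adjusted p below 0.05 and a fold change of at least 1.5. This scale understates the change of low genes. The script was tested on simulated data. FPKM carries no counts, so no counting intervals are given. The main tests took no libraries as paired. The replicate number was a block only in an alternative fit, which was run in each comparison. In HFD against ND the deviations of same-numbered libraries correlated at 0.55, 0.34 and 0.12. The labels do not say what a number shares, and HFD replicate 3 went best with ND replicate 2 (0.63).

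The members and lists were chosen with earlier results of these data known. A listed substrate gene is not reported here and was left out of its list. The levels of all 8 genes were given in each group. From the lists, the called genes and those with the highest and lowest log2 fold change were named, and for likeness the 3 genes with the highest Pearson r. Alternatives were another pseudocount, filter or scaling, all 12 libraries, the replicate block, no trend, array weights and each library left out; the length correction and the 11-library fit were added after seeing the data.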

Additional observations from a re-analysis of the deposited data

How the results depend on the processing

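Of the 458 alternative log2 fold changes of members, 390 kept direction and call, 26 lost a call, 10 gained one and 32 turned sign. No call turned sign. The causes were not tested. Genes called moved from 255 in HFD against ND to 126 (pseudocount of 0.1), 1131 (all 12 libraries), 0 (replicate block) and 6057 (array weights), and from 0 to 2098 when a library was left out. In GT against HFD, 464 became 5 (no filter), 1 (all 12 libraries), 5 (replicate block), 67 (no trend), 1589 (array weights), 139 (11 libraries) and 4 to 1107 with a library left out. In TJ against HFD, 2366 became 382 (no filter), 1 (all 12 libraries), 1198 (replicate block) and 0 to 3412 with a library left out. In TJ against GT, 18 became 11 (pseudocount of 0.1), 6 (no filter), 6 (mean of at least 5 FPKM), 29 (quantile normalization), 4 (all 12 libraries), 1659 (array weights), 247 (11 libraries) and 4 to 81 with a library left out; the replicate block gave 18.

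Members called in HFD against ND moved from 0 to 1 of 7 with all 12 libraries, where 1131 of 14430 tested genes were called. With array weights they moved to 2 of 7, where 6057 of 14430 were called. With a library left out they were 0 to 1, where 0 to 2098 genes were called. Under the replicate block no member and no gene was called. For GT against HFD the 1 called member became 0 with no filter, at a mean of 5 FPKM, with all 12 libraries, under the replicate block, without the trend and with 11 libraries, and 0 to 1 with a library left out. For TJ against HFD the 2 became 0 with no filter and with all 12 libraries, 1 at a mean of 5 FPKM, under the replicate block (Prkag3), without the trend and with array weights, 4 with 11 libraries, and 0 to 4 with a library left out. Of all tested genes 3003 of 12807 were called with 11 libraries. Without TJ replicate 3, which gave the 4, it was 3412 of 12873. In TJ against GT array weights called 1 of 7, where 1659 of 12187 tested genes were called. The share of higher among called genes in TJ against HFD was 949 of 2366, and 1285 of 2367 with median-of-ratios scaling and 1543 of 2694 with quantile normalization. For GT against HFD it was 233 of 464, 399 of 544 and 405 of 567.

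Signs turned in HFD against ND with array weights for Prkaa1 (-0.48), Prkab2 (-0.37) and Prkag3 (-0.37), and for Prkaa2 with a pseudocount of 0.1 (0.23) and quantile normalization (0.024). With a library left out they ran from -0.43 to 0.73 for Prkaa1, -0.66 to 0.23 for Prkaa2, -0.29 to 0.74 for Prkab2 and -0.67 to 0.70 for Prkag3. In GT against HFD signs turned with array weights for Prkaa1 (-0.00065) and Prkab2 (-0.10), and for Prkaa2 with median-of-ratios scaling (0.040) and quantile normalization (0.28); with a library left out Prkaa2 ran from -0.15 to 0.024 and Prkab2 from -0.030 to 0.11. In TJ against HFD they turned for Prkab1 with quantile normalization (0.014) and array weights (0.060), and for Prkaa2 with quantile normalization (0.14) and the length trend removed (0.052). In TJ against GT they turned for Prkab1 with median-of-ratios scaling (0.016) and quantile normalization (0.049), and for Prkaa2 with the length trend removed (0.10); with a library left out Prkab1 ran from -0.19 to 0.11 and Prkag3 from -0.030 to 0.20. With a library left out the mean share of Prkag3 in the gamma transcript ran from 5.26 to 13.9% in ND, 13.3 to 16.2% in HFD, 18.9 to 21.2% in GT and 18.04 to 20.4% in TJ. Prkag1 entered these shares as listed.

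Outside HFD against ND the deviations of same-numbered libraries correlated at -0.21 to 0.37. What a number shares is not given for any comparison. In no comparison did every library correlate best with its own number. With 3 libraries a group, calls of single genes depend on single libraries, and low genes such as Prkaa2 sit near the filter.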
